A study of Jaculus jaculus and Mus musculus with 24 samples.

Results

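The genes described here are 9 genes of keratinocytes, the main cells of the epidermis, and of desmosomes, the junctions that hold those cells together: Trp63, Krt5, Krt14, Krt10, Dsp, Pkp1, Dsg2, Jup and Perp. They were chosen by name as a check on skin in the foot samples, and were found by pairing the transcript identifiers of the count files with mouse gene symbols. Of the 9, 8 have a feature among the 17641 features counted, and Krt5 is not analysed here. Of those 8, 7 passed the filter on low counts and were tested with 14448 genes in all, and Krt14 did not pass.

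RNA was sequenced from hindfoot muscle and from a forelimb muscle, the flexor digitorum superficialis (FDS), in the jerboa (Jaculus jaculus), a bipedal desert rodent, and in the mouse (Mus musculus), at postnatal day 3 (P3) and at birth (P0). The 8 groups of 3 libraries were jerboa foot and jerboa forelimb at P3 and at P0, and mouse foot and mouse forelimb at P3 and at P0, all labelled normal under treatment. Foot muscle was taken from sections of the foot and forelimb muscle by dissection, so the limb and the way of sampling cannot be told apart, and the labels name no strain or allele and do not tie libraries to animals. Each p-value therefore measures the spread between these libraries.

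The epidermis is a layered epithelium. Cells of its basal layer divide, are marked by the keratin pair Krt5 and Krt14 and need the transcription factor p63, the product of Trp63. Cells that leave that layer switch to Krt10 and its partner Krt1 and later build the cornified envelope, a sheet of crosslinked protein. Desmosomes join neighbouring cells: cadherins such as Dsg2 span the membrane, Jup and Pkp1 bind the cadherin tails, and Dsp ties this plaque to the keratin filaments. Several of these proteins also work outside skin, in simple epithelia, in the heart and, for Jup, in adherens junctions of many cell types.

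Libraries held between 16734991 and 54689680 counted reads, and a count of 0 allows up to 3 reads, a level of 0.0549 to 0.179 reads per 1000000 counted (RPM) in a library. Levels are given in CPM, counts per 1000000 of the normalised library size, as mean ± SD with n = 3 unless stated, and changes as log2 fold changes ± SE. Floors and intervals cover counting error only. All 10 muscle defining markers had at least 1209 reads in every group and reached at least 10 CPM in some group. Their summed level ran from 26064 to 28151 CPM in P3 jerboa foot, against 52461 to 59684 CPM in P3 jerboa forelimb, and from 38763 to 43380 CPM in P0 jerboa foot, against 65600 to 77443 CPM in P0 jerboa forelimb. In mouse it ran from 34951 to 37724 CPM in P3 foot, against 54299 to 58781 CPM in P3 forelimb, and from 28864 to 38303 CPM in P0 foot, against 62149 to 71521 CPM in P0 forelimb. Foot libraries thus held less of these muscle transcripts in both species. By gene, jerboa foot had 2 of the 10 higher and 7 lower at P3, and 1 higher and 7 lower at P0. Mouse foot had 3 higher and 7 lower at P3, and 2 higher and 7 lower at P0. Of all genes tested, 35.9% were called higher and 32.1% lower in jerboa foot at P3, and 31.2% and 34.8% at P0. The shares in mouse foot were 27.3% and 25.3% at P3, and 29.8% and 29.3% at P0. In such bulk samples, fewer cells of a type and less RNA per cell cannot be told apart.

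The keratin genes of the epidermis were close to the limit of detection or low in every group. Krt14, the basal layer keratin (mouse chromosome 11, 100203162 to 100207548, minus strand, GRCm38), had between 0 and 8 reads in any library and never exceeded 0.401 CPM. Summed over the 3 libraries of a group it had 3 reads in P3 jerboa foot, against 3 in P3 jerboa forelimb, and 12 reads in P0 jerboa foot, against 17 in P0 jerboa forelimb. In mouse it had 5 reads in P3 foot, against 8 in P3 forelimb, and 4 reads in P0 foot, against 5 in P0 forelimb. The exact Poisson interval (95%) of the group with the highest rate, P0 jerboa foot, was 0.114 to 0.386 RPM, and that of P0 jerboa forelimb was 0.104 to 0.285 RPM. The libraries of foot and forelimb overlapped in both species at both ages, so no difference between the limbs was detectable at this depth. At P0 the rate in jerboa foot over that in jerboa forelimb was 1.24 (exact counting interval 0.540 to 2.75). Reads shared with related keratin genes may not have been counted, and this was not tested. The series has no skin library, so for jerboa these counts do not show whether the feature can take up reads of the gene.

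Krt10, the keratin of the suprabasal layers (mouse chromosome 11, 99385254 to 99389364, minus strand), was low but measurable. It had 1.67 ± 0.297 CPM in P3 jerboa foot, against 1.29 ± 0.157 CPM in P3 jerboa forelimb, and 1.35 ± 0.658 CPM in P0 jerboa foot, against 1.80 ± 0.161 CPM in P0 jerboa forelimb. In mouse the level was 3.47 ± 0.542 CPM in P3 foot, against 3.25 ± 0.266 CPM in P3 forelimb, and 3.57 ± 0.468 CPM in P0 foot, against 3.75 ± 0.126 CPM in P0 forelimb. Foot and forelimb libraries overlapped in all 4 comparisons, and the test called none of them. Of the jerboa P0 foot libraries, replicate 3 stood at 2.11 CPM and the others at 0.973 and 0.965 CPM. Without replicate 3 the change of jerboa foot over forelimb at P0 was -0.89 (adjusted p = 0.0032), whereas with it the change was -0.44 ± 0.25 (adjusted p = 0.12). An antisense gene, Gm11940, overlaps the Krt10 exons by 146 bases in the mouse annotation, and the counts used here are of the sense strand only.

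Trp63, the gene of the epidermal regulator p63 (mouse chromosome 16, 25683763 to 25892102, plus strand), was higher in jerboa foot than in jerboa forelimb at both ages. At P3 the libraries of jerboa foot had 12.9, 16.5 and 14.6 CPM, against 2.70, 3.26 and 2.83 CPM in jerboa forelimb. At P0 they had 12.8, 16.01 and 18.5 CPM, against 2.24, 2.19 and 2.53 CPM in jerboa forelimb. Every foot library stood above every forelimb library at both ages. The log2 fold change of foot over forelimb was 2.32 ± 0.15 at P3 (adjusted p = 8.8e-13) and 2.75 ± 0.16 at P0 (adjusted p = 1.4e-13) by edgeR's quasi-likelihood test with Benjamini-Hochberg adjustment over all genes tested.

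In mouse, Trp63 was measurable in both limbs and the difference between them was smaller. At P3 mouse foot had 6.05, 7.19 and 6.84 CPM, against 6.25, 5.50 and 4.88 CPM in mouse forelimb, and these libraries overlapped (0.28 ± 0.13, adjusted p = 0.085). At P0 mouse foot had 8.84, 10.9 and 8.66 CPM, against 5.85, 6.48 and 6.20 CPM in mouse forelimb, without overlap (0.62 ± 0.14, adjusted p = 0.00033). The P3 difference in mouse was called without replicate 1 of mouse forelimb (0.37, adjusted p = 0.044) and with upper quartile scaling (0.31, adjusted p = 0.0498). The feature counted is a transcript of 4703 bases and 12 exons that starts 118153 bases inside the gene, as the short forms of p63 that lack the first transactivation domain do. It shares 11 of its 12 exons with the 4 of 8 annotated transcripts that start upstream, so the counts do not separate the long and short forms.

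Dsp encodes desmoplakin, the plaque protein that anchors keratin filaments (mouse chromosome 13, 38151294 to 38198577, plus strand). At P3 jerboa foot had 49.4, 58.5 and 37.8 CPM, against 22.4, 11.6 and 22.2 CPM in jerboa forelimb. At P0 jerboa foot had 67.0, 89.3 and 103 CPM, against 10.8, 7.51 and 8.61 CPM in jerboa forelimb. The foot libraries lay above all forelimb libraries at both ages, with a log2 fold change of 1.38 ± 0.20 at P3 (adjusted p = 1.3e-06) and 3.27 ± 0.22 at P0 (adjusted p = 2.2e-12).

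In mouse Dsp was low, and lower in the foot. At P3 mouse foot had 0.188, 0.303 and 0.332 CPM, from 7, 17 and 15 reads, against 0.490, 0.997 and 0.575 CPM in mouse forelimb, from 24, 48 and 32 reads. At P0 mouse foot had 0.376, 0.328 and 0.604 CPM, against 2.39, 1.85 and 2.55 CPM in mouse forelimb. These came from 10, 12 and 18 reads in foot and from 100, 68 and 115 reads in forelimb. The mouse groups did not overlap at either age, and here every foot library lay below every forelimb library. The change was -1.27 ± 0.49 at P3 (adjusted p = 0.033) and -2.39 ± 0.41 at P0 (adjusted p = 2.3e-05). The P3 call was lost with limma voom (-1.22, adjusted p = 0.18). It was also lost without replicate 1 of P3 mouse foot (-1.10, adjusted p = 0.095), without replicate 2 of P3 mouse foot (-1.34, adjusted p = 0.068) and without replicate 2 of P3 mouse forelimb (-0.92, adjusted p = 0.17).

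**Figure D1:**
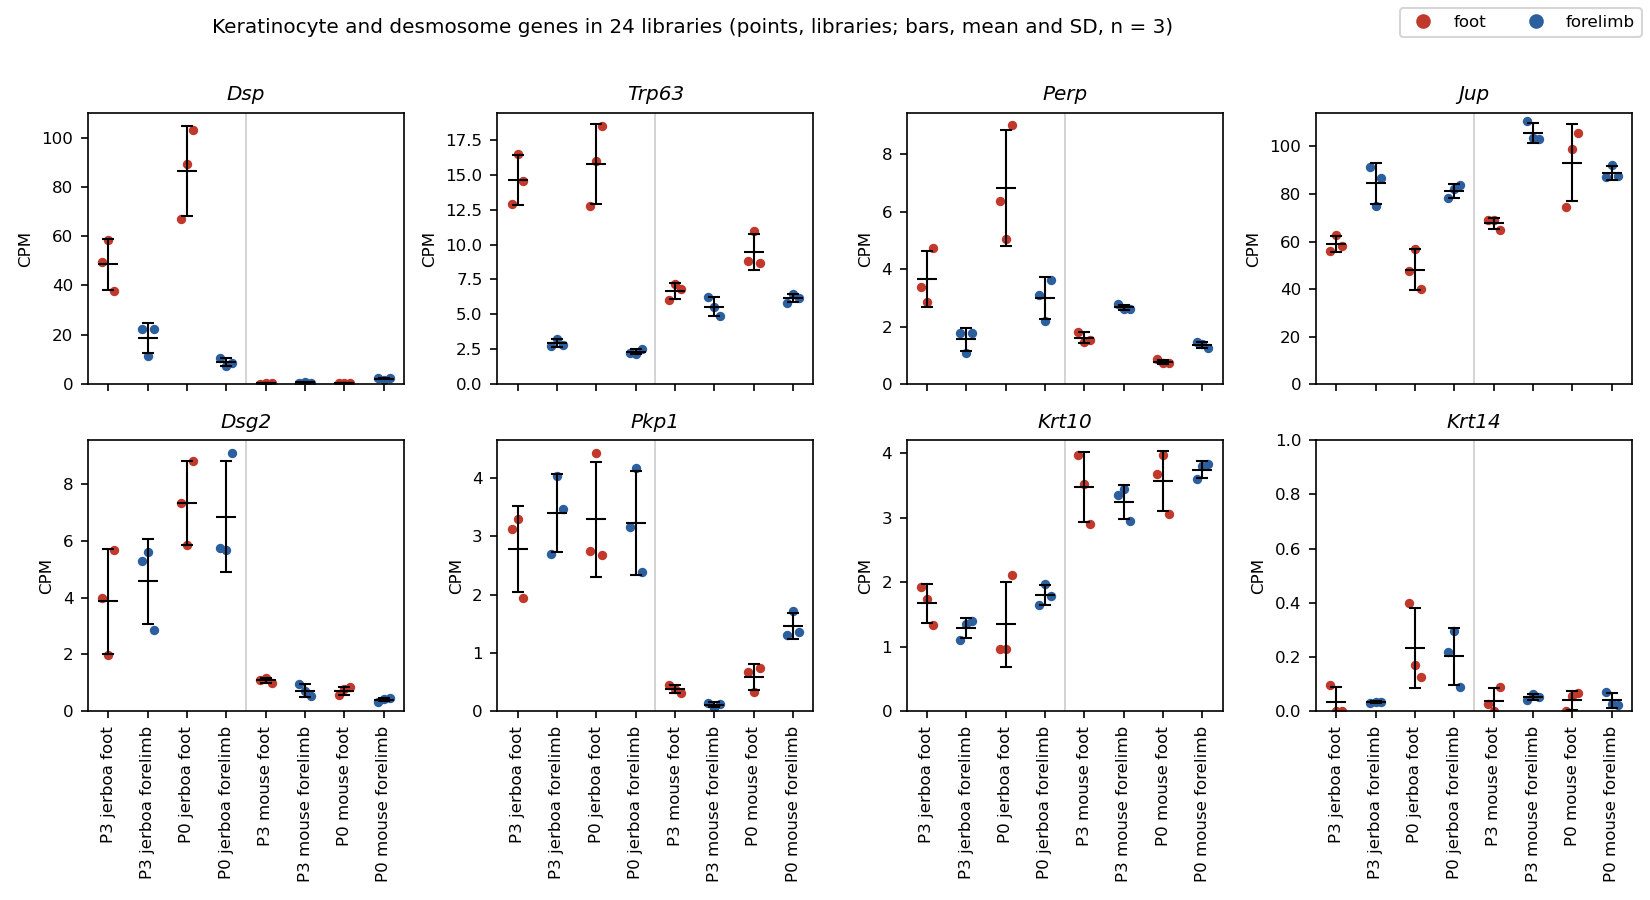
Level in CPM (vertical axis, a separate scale for each gene) of the 8 genes with a feature in each of the 24 libraries; points are libraries, red for foot and blue for forelimb, and bars are the mean and SD of 3 libraries in each of 8 groups. Dsp and Trp63 stand at 37.8 to 103 CPM and 12.8 to 18.5 CPM in jerboa foot libraries, above all jerboa forelimb libraries, while Krt14 is at or under 0.401 CPM in all 24.

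Perp, a membrane protein of desmosomes that p63 and p53 are known to activate (mouse chromosome 10, 18845020 to 18857073, plus strand), differed between the limbs in opposite directions in the 2 species. At P3 jerboa foot had 3.39, 2.86 and 4.73 CPM, against 1.78, 1.09 and 1.79 CPM in jerboa forelimb, and at P0 jerboa foot had 6.35, 5.05 and 9.01 CPM, against 3.11, 2.19 and 3.63 CPM in jerboa forelimb. At P3 mouse foot had 1.83, 1.48 and 1.55 CPM, against 2.78, 2.60 and 2.62 CPM in mouse forelimb, and at P0 mouse foot had 0.865, 0.739 and 0.738 CPM, against 1.46, 1.39 and 1.26 CPM in mouse forelimb. No pair of groups overlapped: jerboa foot was above jerboa forelimb and mouse foot was below mouse forelimb. The changes were 1.22 ± 0.24 at P3 (adjusted p = 7.4e-05) and 1.18 ± 0.22 at P0 (adjusted p = 4.5e-05) in jerboa, and -0.72 ± 0.22 at P3 (adjusted p = 0.0077) and -0.81 ± 0.27 at P0 (adjusted p = 0.013) in mouse.

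Jup encodes plakoglobin, which binds cadherin tails in desmosomes and in adherens junctions (mouse chromosome 11, 100368958 to 100397763, minus strand), and it was well measured in every library. At P3 jerboa foot had 56.2, 62.6 and 58.1 CPM, against 91.5, 74.9 and 86.8 CPM in jerboa forelimb, and at P0 jerboa foot had 47.8, 56.9 and 39.9 CPM, against 78.2, 81.9 and 83.8 CPM in jerboa forelimb. At P3 mouse foot had 69.0, 68.9 and 65.0 CPM, against 111, 103 and 103 CPM in mouse forelimb, and at P0 mouse foot had 74.7, 99.0 and 105 CPM, against 87.2, 92.4 and 87.4 CPM in mouse forelimb. All foot libraries were below all forelimb libraries except in mouse at P0, where the groups overlapped. The change was -0.52 ± 0.10 at P3 (adjusted p = 0.00012) and -0.75 ± 0.11 at P0 (adjusted p = 1.2e-06) in jerboa, -0.64 ± 0.10 at P3 in mouse (adjusted p = 1.1e-05) and 0.07 ± 0.10 at P0 in mouse (adjusted p = 0.60).

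Pkp1, a plakophilin that strengthens desmosomes in the upper epidermis (mouse chromosome 1, 135871395 to 135919207, minus strand), was not called between the limbs in jerboa. It had 2.79 ± 0.737 CPM in P3 jerboa foot, against 3.40 ± 0.671 CPM in P3 jerboa forelimb, and 3.29 ± 0.990 CPM in P0 jerboa foot, against 3.23 ± 0.893 CPM in P0 jerboa forelimb. In mouse it was called at both ages with opposite signs. At P3 mouse foot had 0.457, 0.374 and 0.310 CPM, from 14 to 21 reads, against 0.143, 0.0623 and 0.126 CPM in mouse forelimb, from 3 to 7 reads. At P0 mouse foot had 0.677, 0.328 and 0.738 CPM, from 12 to 22 reads, against 1.31, 1.71 and 1.35 CPM in mouse forelimb, from 55 to 63 reads. Mouse foot was above mouse forelimb at P3 (1.73 ± 0.46, adjusted p = 0.0027) and below it at P0 (-1.35 ± 0.32, adjusted p = 0.00082), in both cases without overlap.

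Dsg2, a desmosomal cadherin of simple epithelia and heart that is also present in the basal epidermis (mouse chromosome 18, plus strand), was not called between the limbs. It had 3.88 ± 1.85 CPM in P3 jerboa foot, against 4.58 ± 1.498 CPM in P3 jerboa forelimb, and 7.33 ± 1.49 CPM in P0 jerboa foot, against 6.85 ± 1.96 CPM in P0 jerboa forelimb. In mouse it had 1.09 ± 0.0905 CPM in P3 foot, against 0.729 ± 0.220 CPM in P3 forelimb, and 0.723 ± 0.142 CPM in P0 foot, against 0.412 ± 0.0687 CPM in P0 forelimb. The jerboa libraries overlapped at both ages, whereas all mouse foot libraries were above all mouse forelimb libraries at both ages. At P0 the mouse foot libraries held 15 to 28 reads of Dsg2, and the mouse forelimb libraries 14 to 21. The mouse changes were 0.59 ± 0.35 at P3 (adjusted p = 0.16) and 0.82 ± 0.44 at P0 (adjusted p = 0.12). Fitted on the libraries compared alone, the P0 change was called (0.81, adjusted p = 0.034). With a block for replicate number, which ties no libraries to animals, both changes were called. They were 0.59 at P3 (adjusted p = 0.043) and 0.80 at P0 (adjusted p = 0.043).

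Of the 7 tested genes, 3 were higher in jerboa foot at P3 and 1 was lower, where 67.9% of all genes tested were called, 35.9% higher and 32.1% lower. At P0 the counts in jerboa were the same, 3 higher and 1 lower, with 65.9% of all genes called, 31.2% higher and 34.8% lower. In mouse foot 1 gene was higher and 3 were lower at P3, where 52.5% of all genes were called, 27.3% higher and 25.3% lower, and 1 was higher and 3 were lower at P0, where 59.0% were called, 29.8% higher and 29.3% lower. In each comparison 4 of 7 were therefore called, a share near that of all genes. The median log2 fold change of the 7 was 0.40 at P3 and 0.09 at P0 in jerboa, and 0.09 at P3 and -0.07 at P0 in mouse. Over all genes the median was 0.04 at P3 and -0.01 at P0 in jerboa, and 0.03 at P3 and 0.01 at P0 in mouse.

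**Figure D2:**
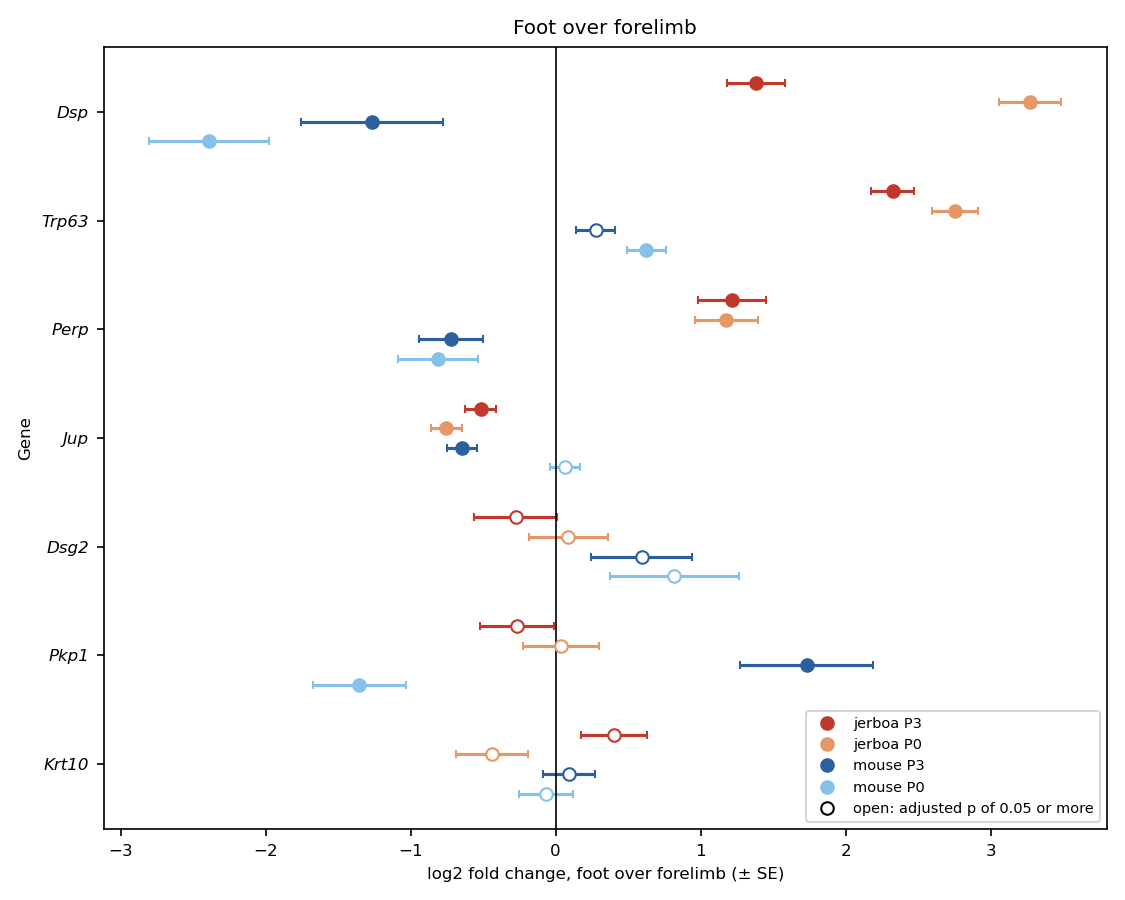
Log2 fold change of foot over forelimb (horizontal axis; points, estimates; bars, SE; 3 libraries per group) for the 7 tested genes in jerboa and mouse at P3 and P0; filled points have an adjusted p under 0.05. Dsp runs from 3.27 in jerboa at P0 to -2.39 in mouse at P0, and Dsg2 and Krt10 have open points only.

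The limb difference itself was then compared between the species, as jerboa minus mouse of the foot over forelimb log2 change, which needs no level compared between genomes. At P3, 3 of the 7 genes had a larger value in jerboa and 1 a smaller one, where 49.0% of all genes were called, 24.1% larger and 24.9% smaller. At P0, 4 had a larger value and 1 a smaller one, where 48.6% were called, 21.6% larger and 26.9% smaller. Dsp differed by 2.65 ± 0.52 at P3 (adjusted p = 0.00017) and 5.66 ± 0.44 at P0 (adjusted p = 3.4e-10), the widest gap of the 7 genes at each age. The mouse foot part of these Dsp values rests on 39 reads at P3 and 40 at P0, summed over the group. Trp63 differed by 2.05 ± 0.20 and 2.13 ± 0.21, and Perp by 1.94 ± 0.32 and 1.99 ± 0.35, at P3 and P0. Pkp1 had a smaller value in jerboa at P3 (-1.99 ± 0.53, adjusted p = 0.0028) and a larger one at P0 (1.39 ± 0.42, adjusted p = 0.0077), which follows its opposite signs in mouse. Jup had a smaller value in jerboa at P0 (-0.82 ± 0.15, adjusted p = 7.1e-05) and was not called at P3 (0.13 ± 0.15, adjusted p = 0.50). Dsg2 and Krt10 were not called at either age. Without replicate 3 of P3 jerboa foot or replicate 3 of P3 jerboa forelimb, Dsg2 had a smaller value in jerboa at P3 (-1.22 and -1.12, adjusted p = 0.025 and 0.038). Without replicate 3 of P0 jerboa foot, Krt10 had a smaller value at P0 (-0.82, adjusted p = 0.024).

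Age was compared within each tissue, as P3 over P0. The P0 libraries are labelled as trimmed reads and the P3 libraries as raw reads, so age and this difference in preparing the reads cannot be told apart. In jerboa foot 1 of the 7 genes was higher at P3 and 3 were lower, where 47.3% of all genes were called, 27.0% higher and 20.3% lower. Of those calls 57.0% were higher, against 47.7% with only the libraries compared. Dsp had 48.6 ± 10.4 CPM in P3 jerboa foot, against 86.5 ± 18.3 CPM in P0 jerboa foot, without overlap (-0.83 ± 0.19, adjusted p = 0.0010). Perp had 3.66 ± 0.963 CPM at P3, against 6.81 ± 2.02 CPM at P0 (-0.91 ± 0.22, adjusted p = 0.0014), also without overlap. Dsg2 was lower as well (-0.95 ± 0.29, adjusted p = 0.0090), but not without replicate 2 of P3 jerboa foot (-0.61, adjusted p = 0.074). Jup was higher at P3 by a small margin with overlapping libraries (0.29 ± 0.11, adjusted p = 0.031). That call was lost without any of 4 of the 6 libraries: replicates 1 and 3 of P0 jerboa foot (adjusted p = 0.074 and 0.21) and replicates 2 and 3 of P3 jerboa foot (adjusted p = 0.11 and 0.052).

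Krt10 in jerboa foot, which was not called with age (0.35 ± 0.25, adjusted p = 0.27), was called higher at P3 without replicate 3 of P0 jerboa foot (0.80, adjusted p = 0.012). In jerboa forelimb 1 gene was higher at P3 and 1 lower, where 43.2% of all genes were called, 22.5% higher and 20.6% lower. Dsp was higher there, with 18.7 ± 6.15 CPM at P3, against 8.96 ± 1.66 CPM at P0 (1.06 ± 0.21, adjusted p = 0.00029), and Perp was lower, with 1.55 ± 0.403 CPM at P3, against 2.98 ± 0.730 CPM at P0 (-0.95 ± 0.24, adjusted p = 0.0023). Trp63 was called with age in neither jerboa tissue (-0.10 ± 0.13 in foot and 0.33 ± 0.17 in forelimb). Krt14 was left out of this test for its low counts. Its rate at P3 over that at P0 was 0.159 in jerboa foot, from 3 against 12 reads (exact counting interval 0.0287 to 0.588; all 3 reads at P3 were in replicate 1, and replicates 2 and 3 had 0), and 0.178 in jerboa forelimb, from 3 against 17 reads (0.0334 to 0.615).

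In mouse foot 1 gene was higher at P3 and 2 were lower, where 57.6% of all genes were called, 29.1% higher and 28.5% lower. Perp was higher, with 1.62 ± 0.185 CPM at P3, against 0.781 ± 0.0730 CPM at P0 (1.05 ± 0.27, adjusted p = 0.0017). Trp63 was lower, with 6.69 ± 0.581 CPM at P3, against 9.48 ± 1.27 CPM at P0 (-0.50 ± 0.13, adjusted p = 0.0024), and so was Jup, with 67.6 ± 2.31 CPM at P3, against 93.1 ± 16.2 CPM at P0 (-0.46 ± 0.10, adjusted p = 0.00048). None of these 3 genes overlapped between the ages. In mouse forelimb 2 genes were higher at P3 and 2 were lower, where 51.4% of all genes were called, 26.0% higher and 25.4% lower. Pkp1 was lower, with 0.110 ± 0.0425 CPM at P3, against 1.46 ± 0.222 CPM at P0 (-3.67 ± 0.38, adjusted p = 2.5e-08), the widest change with age among the 7 genes in any tissue. Dsp was lower too (-1.73 ± 0.33, adjusted p = 0.00012), and Perp was higher (0.96 ± 0.23, adjusted p = 0.0010). Jup was called higher with a small change (0.25 ± 0.10, adjusted p = 0.045), and that call was lost whichever of the 6 libraries was left out (adjusted p from 0.057 to 0.13). Dsg2 was not called there (0.81 ± 0.41, adjusted p = 0.10) but was with DESeq2 (0.84, adjusted p = 0.049) and with only the libraries compared (0.79, adjusted p = 0.039).

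**Figure D3:**
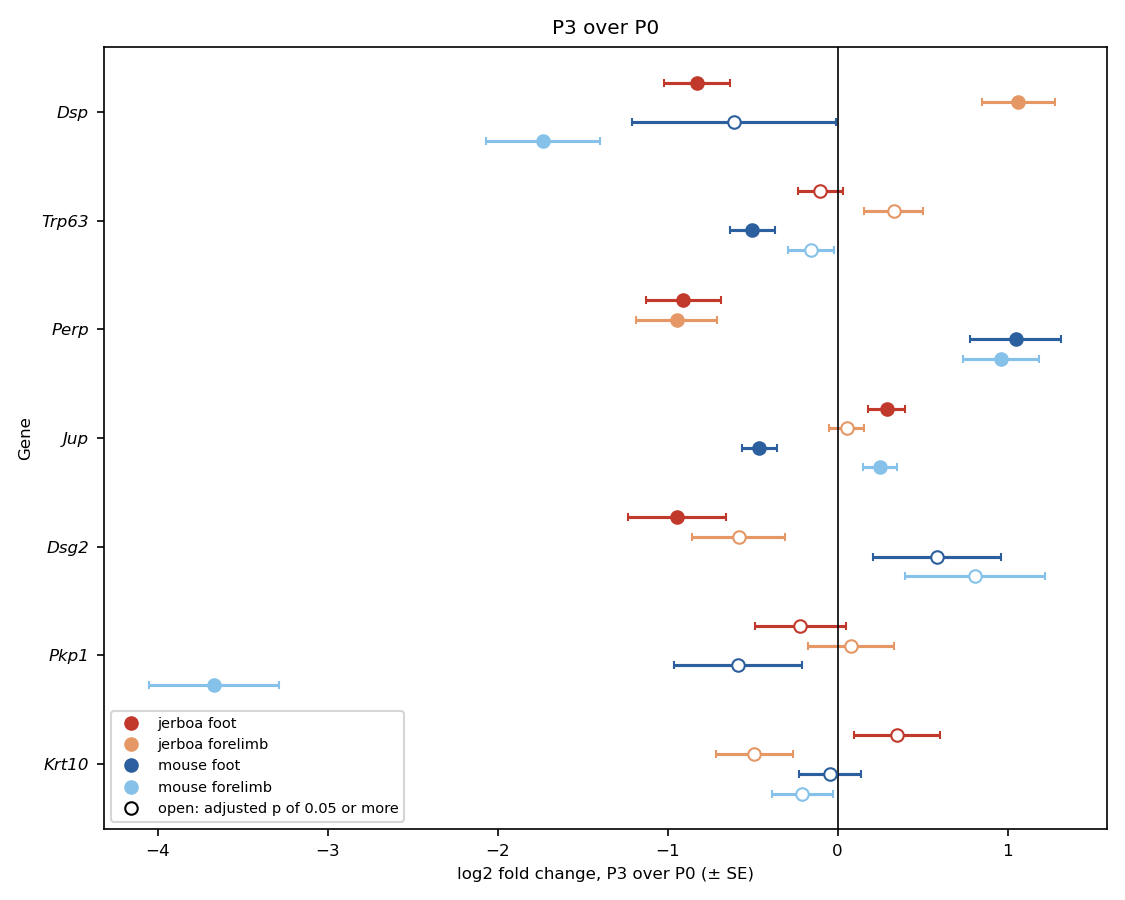
Log2 fold change of P3 over P0 (horizontal axis; points, estimates; bars, SE; 3 libraries per group) for the 7 tested genes in jerboa foot, jerboa forelimb, mouse foot and mouse forelimb; filled points have an adjusted p under 0.05. Perp is near -0.91 and -0.95 in the jerboa tissues and near 1.05 and 0.96 in the mouse tissues, and Pkp1 in mouse forelimb is at -3.67.

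The change of the limb difference with age was tested within each species, as the foot over forelimb log2 change at P3 minus that at P0, a test added after the values were seen. In jerboa 0 of the 7 genes had a larger difference at P3 and 1 a smaller one, where 28.3% of all genes were called, 16.2% larger and 12.1% smaller. Of those calls 57.3% were larger, against 45.9% with only the libraries compared. That gene was Dsp (-1.89 ± 0.29, adjusted p = 3.7e-05), which was lower at P3 in foot and higher at P3 in forelimb. The Trp63 difference was not called (-0.43 ± 0.22, adjusted p = 0.15), although it was without replicate 1 of P0 jerboa foot (-0.56, adjusted p = 0.0496). In mouse 1 gene had a larger value and 1 a smaller one, where 31.5% of all genes were called, 17.2% larger and 14.3% smaller. These were Pkp1 (3.08 ± 0.56, adjusted p = 0.00018) and Jup (-0.71 ± 0.15, adjusted p = 0.00060). Krt10 in jerboa was not called (0.84 ± 0.34, adjusted p = 0.066), but was called without replicate 3 of P0 jerboa foot (1.29, adjusted p = 0.0038) and without replicate 3 of P3 jerboa foot (0.95, adjusted p = 0.046).

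Within each species, the groups were placed in the order of their mean. For Dsp in jerboa the order was P0 foot, P3 foot, P3 forelimb and P0 forelimb, and no neighbours overlapped. For Dsp in mouse it was P0 forelimb, P3 forelimb, P0 foot and P3 foot, where P3 forelimb overlapped P0 foot and P0 foot overlapped P3 foot. For Trp63 in jerboa the foot groups at P0 and P3 overlapped at the top, and in mouse P0 foot stood alone at the top while each of the other neighbours overlapped. For Perp in mouse the order was P3 forelimb, P3 foot, P0 forelimb and P0 foot with no overlap between neighbours. For Krt10 every pair of neighbours overlapped in both species, and for Pkp1 every pair did in jerboa.

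Levels of different genes were compared per length of the counted transcript in mouse only, as CPM per kilobase, because jerboa gene models were not used here. Jup was the most abundant of the 8 in every mouse group, with group means from 21.1 to 33.0 CPM per kilobase. Trp63 ran from 1.18 to 2.02, Krt10 from 1.55 to 1.79 and Perp from 0.400 to 1.37 CPM per kilobase. Pkp1 ran from 0.0236 to 0.313, Dsp from 0.0286 to 0.236, Dsg2 from 0.0714 to 0.189 and Krt14 from 0.0227 to 0.0308 CPM per kilobase. Plakoglobin transcripts were thus present at levels far above those of the desmosomal partners Dsp, Dsg2 and Pkp1 in the same mouse libraries.

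Other genes of the epidermis were examined as lists. The counts of each list below stand beside the shares of all genes tested. In jerboa foot 35.9% of all genes were called higher and 32.1% lower at P3, and 31.2% and 34.8% at P0. In mouse foot 27.3% were called higher and 25.3% lower at P3, and 29.8% and 29.3% at P0. The medians of all genes lay between -0.01 and 0.04 in these comparisons. Of 12 other desmosome genes, 10 have a feature and 7 were tested. The skin cadherins Dsg3, Dsg4 and Dsc1 had at most 2 reads in any group. The 4 listed genes with the highest mean were Pkp4, Dsc2, Ppl and Pkp2, which are a plakophilin relative found at many junctions, a widely expressed desmocollin, the plakin periplakin and a plakophilin of simple epithelia and heart. In jerboa foot 0 of the 7 were higher and 1 was lower at P3, with a median of -0.06, and 1 was higher and 4 were lower at P0, with a median of -0.27. Pkp4 was the gene lower at P3, with 98.8 ± 2.29 CPM in jerboa foot, against 131 ± 1.72 CPM in jerboa forelimb (-0.41 ± 0.07, adjusted p = 5.8e-06). In mouse foot 1 was higher and 0 were lower at P3, with a median of 0.13, and 3 were higher and 1 was lower at P0, with a median of 0.55. The gene higher at P3 was Dsc2, with 6.73 ± 1.01 CPM in mouse foot, against 3.26 ± 0.0583 CPM in mouse forelimb (1.05 ± 0.21, adjusted p = 0.00023).

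Of 12 basal epidermis genes, 11 have a feature and 10 were tested. Krt15, a keratin of the basal layer, had between 1 and 14 reads in a group and was not tested. In jerboa foot 2 of the 10 were higher and 7 lower at P3, with a median of -0.74, and 2 were higher and 6 lower at P0, with a median of -0.88. In mouse foot 1 was higher and 6 were lower at P3, with a median of -0.76, and 2 were higher and 4 lower at P0, with a median of -0.11. The listed genes with the highest mean were Dst, a plakin of hemidesmosomes that has other forms in muscle and nerve, Itga6, a laminin receptor that endothelium also carries, and Lamb3 and Col17a1, of the epidermal basement membrane. Itga6 had 45.0 ± 3.73 CPM in P3 jerboa foot, against 178 ± 13.3 CPM in P3 jerboa forelimb (-1.98 ± 0.07, adjusted p = 1.7e-17). Col17a1 had 7.29 ± 0.101 CPM in P3 jerboa foot, against 17.1 ± 1.95 CPM in P3 jerboa forelimb (-1.23 ± 0.17, adjusted p = 4.7e-07). In jerboa foot most of this list was thus lower, while Trp63 and Dsp were higher. Cdh3, the P-cadherin of the basal layer and hair follicle, which was picked after its values were seen, was higher in the foot in both species, by 2.14 ± 0.24 at P3 and 2.07 ± 0.24 at P0 in jerboa and by 2.19 ± 0.17 at P3 and 2.25 ± 0.17 at P0 in mouse.

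All 16 suprabasal and cornified envelope genes have a feature, 10 were tested, and 7 stayed under 1 CPM in every group. Over all genes tested, 67.9% were called in jerboa foot at P3 and 65.9% at P0, and 52.5% and 59.0% in mouse foot. In jerboa foot 6 of the 10 were higher and 1 lower at P3, with a median of 1.48 (1.47 with Cdsn, at 0 reads in jerboa forelimb, set to its bound of 3 reads over the group and Lor left out), and 6 were higher and 0 lower at P0, with a median of 0.96. In mouse foot 4 were higher and 0 lower at P3, with a median of 0.04, and 3 were higher and 1 lower at P0, with a median of 0.43. The listed genes with the highest mean were Tgm3 and Tgm1, the transglutaminases that crosslink the envelope, Spink5, a protease inhibitor, and Sbsn, a secreted protein of the suprabasal layers. Tgm3 had 17.3 ± 1.78 CPM in P3 jerboa foot, against 7.57 ± 1.85 CPM in P3 jerboa forelimb (1.19 ± 0.26, adjusted p = 0.00022), and Tgm1 had 3.53 ± 0.149 CPM, against 0.908 ± 0.151 CPM (1.95 ± 0.25, adjusted p = 2.4e-07). Spink5 was lower in jerboa foot at P3, with 2.53 ± 0.789 CPM, against 7.33 ± 1.66 CPM in jerboa forelimb (-1.501 ± 0.287, adjusted p = 5.8e-05).

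The structural proteins that define the cornified layer had few counts or none in jerboa. As for Krt14, these counts do not show whether the jerboa reads of such a gene can be taken up by its feature. The Flg feature is a transcript of 1076 bases and 2 exons, 1 of 10 annotated for the gene, so reads from the rest of the gene were not counted there. Flg, filaggrin, had 0 reads in every jerboa group and at most 2 in a mouse group. Ivl, involucrin, had 2 reads in P3 jerboa foot and 0 in the other jerboa groups. Lor, loricrin, stayed at or under 0.0970 CPM on average in each jerboa group. In mouse Ivl had 38 reads in P0 foot, against 3 in P0 forelimb, and Lor had 0.558 ± 0.239 CPM in P0 foot, against 0.146 ± 0.0234 CPM in P0 forelimb (1.93 ± 0.53, adjusted p = 0.0035). Krt1, the partner of Krt10, had 0.577 ± 0.178 CPM in P3 jerboa foot, against 0.203 ± 0.150 CPM in P3 jerboa forelimb (1.47 ± 0.65, adjusted p = 0.047). At P0 Krt1 had 1.26 ± 0.437 CPM in jerboa foot, against 0.994 ± 0.605 CPM in jerboa forelimb (0.36 ± 0.49, adjusted p = 0.53). Lor, Ivl, Flg and Krt1 were picked after their values were seen.

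**Figure D4:**
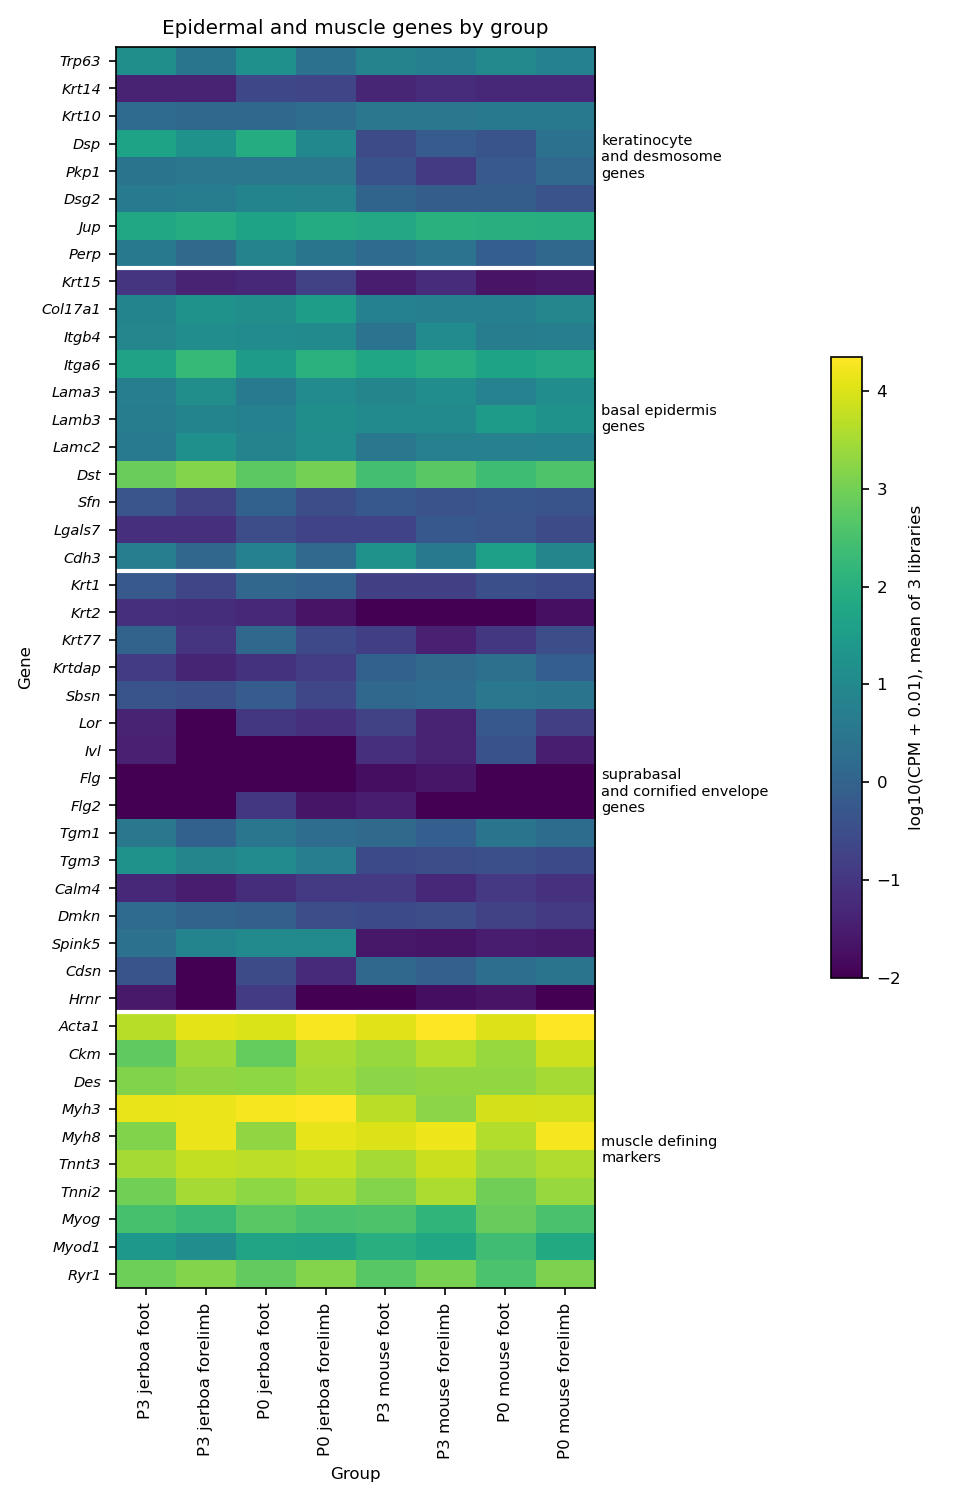
Mean level of 3 libraries as log10 of CPM plus 0.01 (colour) for the keratinocyte and desmosome genes, the basal epidermis genes, the suprabasal and cornified envelope genes and the muscle defining markers (rows) in the 8 groups (columns). Krt14, Krt15, Krt2 and Flg are dark in every column, and the muscle defining markers, at summed levels of 26064 CPM or more per library, are the brightest block.

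Of 16 epithelial identity genes, transcription factors and membrane proteins of epithelia, 11 were tested and 7 stayed under 1 CPM in every group. In jerboa foot 5 were higher and 2 lower at P3, with a median of 0.55, and 6 were higher and 0 lower at P0, with a median of 0.73. In mouse foot 3 were higher and 2 lower at P3, with a median of 0.52, and 5 were higher and 1 lower at P0, with a median of 1.15. Grhl3, a transcription factor of the epidermal barrier, had 9.46 ± 1.31 CPM in P3 jerboa foot, against 4.55 ± 1.37 CPM in P3 jerboa forelimb (1.06 ± 0.24, adjusted p = 0.00048). Its relative Grhl1 had 16.7 ± 0.268 CPM in P3 mouse foot, against 4.55 ± 0.554 CPM in P3 mouse forelimb (1.88 ± 0.11, adjusted p = 8.0e-13), and was not called in jerboa. Rab25, a trafficking protein of epithelia, had 3.48 ± 0.495 CPM in P3 jerboa foot, against 1.02 ± 0.358 CPM in P3 jerboa forelimb (1.77 ± 0.34, adjusted p = 5.5e-05).

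All 4 keratins of simple epithelia were tested. In jerboa foot 0 were higher and 1 was lower at P3 (median 0.74), and 2 were higher and 1 was lower at P0 (median 1.02). The P0 median was 2.04 with 1 gene left out, which had 0 reads in 1 group and at most 3 in the other. Summed levels were 0.249 to 0.881 CPM per library in P3 jerboa foot, against 1.43 to 2.73 CPM in P3 jerboa forelimb. At P0 they were 1.41 to 1.89 CPM in jerboa foot, against 2.09 to 3.57 CPM in jerboa forelimb. In mouse foot 1 was higher and 1 lower at P3 (median 0.07), and 0 were higher and 2 lower at P0 (median -0.38). Krt8 had 8.74 ± 0.639 CPM in P3 mouse foot, against 4.82 ± 0.774 CPM in P3 mouse forelimb (0.86 ± 0.25, adjusted p = 0.0051), the opposite direction to P0. At P0 it had 4.20 ± 2.08 CPM in P0 mouse foot, against 8.83 ± 0.972 CPM in P0 mouse forelimb (-1.09 ± 0.26, adjusted p = 0.00082), and its partner Krt18 had 3.37 ± 1.40 CPM, against 9.21 ± 1.36 CPM (-1.47 ± 0.24, adjusted p = 1.9e-05). In P0 jerboa foot Krt8 was called higher on 16 reads, against 3 reads in P0 jerboa forelimb (adjusted p = 0.015).

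Markers of the other cells of skin were also counted. Of 8 melanocyte markers 5 were tested, with 0 higher and 1 lower in jerboa foot at P3 and 2 higher and 1 lower at P0. In mouse foot 1 was higher and 0 lower at P3, and 4 were higher and 0 lower at P0. Their summed level was 1.99 to 3.65 CPM in P3 jerboa foot, against 4.30 to 7.67 CPM in P3 jerboa forelimb, and 2.68 to 6.38 CPM in P0 mouse foot, against 1.84 to 1.99 CPM in P0 mouse forelimb. Of the 2 Langerhans cell markers tested, jerboa foot had 2 higher at P3 and 1 at P0, mouse foot had 1 higher at each age, and 0 were lower. The defining Langerhans cell marker Cd207 had 1 read in all 24 libraries, in P3 mouse forelimb. Cd74, which all antigen-presenting cells carry, had 13.3 ± 1.51 CPM in P3 jerboa foot, against 7.24 ± 1.03 CPM in P3 jerboa forelimb (0.87 ± 0.19, adjusted p = 0.00031).

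Of 10 hair follicle and appendage genes 6 were tested. In jerboa foot 3 were higher and 2 lower at P3 and 4 were higher and 1 lower at P0, and in mouse foot 2 were higher and 1 lower at each age. Shh, the signal of the hair placode, had 0 reads in every jerboa group and at most 2 in a mouse group, with the same limit on what a jerboa feature can show. The most abundant, Eda, a ligand of skin appendages, was lower in jerboa foot, with 11.6 ± 1.99 CPM, against 42.02 ± 2.62 CPM in jerboa forelimb at P3 (-1.84 ± 0.09, adjusted p = 5.0e-15), and higher in mouse foot at P3 (0.19 ± 0.08, adjusted p = 0.040). Sostdc1, a secreted inhibitor made in hair follicles, was higher in jerboa foot at P3 (0.64 ± 0.21) and P0 (1.68 ± 0.23), lower in mouse foot at P3 (-1.30 ± 0.14) and higher there at P0 (0.55 ± 0.15). All 8 dermal fibroblast genes were tested, with 4 higher and 2 lower in jerboa foot at P3, 6 higher and 1 lower at P0, and in mouse foot 3 higher and 4 lower at P3 and 3 higher and 5 lower at P0. Dcn, a matrix proteoglycan that fibroblasts of muscle also make, was higher in jerboa foot (0.50 ± 0.10 at P3 and 0.89 ± 0.10 at P0) and lower in mouse foot (-0.47 ± 0.10 at P3 and -0.87 ± 0.10 at P0). The list did not move as 1 block. Dlk1, the most abundant, was higher in mouse foot (0.44 ± 0.08 at P3 and 0.47 ± 0.08 at P0) and in jerboa foot at P0 (0.29 ± 0.08). Lum, a matrix proteoglycan, was lower in jerboa foot at P3 (-0.64 ± 0.15) and in mouse foot (-1.26 ± 0.16 at P3 and -1.92 ± 0.16 at P0), and Lrig1 was lower in jerboa foot (-1.04 ± 0.11 at P3 and -0.76 ± 0.11 at P0).

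Vessel and junction genes were counted because desmosome proteins can also come from such cells. All 8 endothelial markers were lower in jerboa foot at P3 and at P0, with medians of -2.26 and -1.81. In mouse foot 8 were lower at P3 and 7 at P0, with 0 higher and medians of -1.20 and -0.74. At P3 their summed level was 211 to 242 CPM in P3 jerboa foot, against 1017 to 1169 CPM in P3 jerboa forelimb, and 526 to 576 CPM in P3 mouse foot, against 1103 to 1192 CPM in P3 mouse forelimb. Cdh5, the cadherin of endothelial junctions, had 35.3 ± 2.94 CPM in P3 jerboa foot, against 232 ± 25.0 CPM in P3 jerboa forelimb (-2.72 ± 0.09, adjusted p = 1.7e-17). Of 7 adherens junction genes tested, jerboa foot had 1 higher and 6 lower at P3, and 1 higher and 5 lower at P0. In mouse foot 3 were higher and 1 lower at P3 and 3 were higher and 2 lower at P0. Ctnnb1, the catenin most like Jup, had 667 ± 25.4 CPM in P3 jerboa foot, against 814 ± 20.02 CPM in P3 jerboa forelimb (-0.29 ± 0.06, adjusted p = 7.0e-05). Jup and the endothelial markers were both lower in jerboa foot at both ages and in mouse foot at P3. In mouse foot at P0, 7 of the 8 endothelial markers were lower while Jup was not called (0.07 ± 0.10). The part of the vessels in the Jup difference was not tested.

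Perp is also a target of p53, and other p53 target genes were counted beside it. Of the 8 tested, jerboa foot had 2 higher and 4 lower at P3, and 3 higher and 3 lower at P0. Over all genes, 67.9% were called in jerboa foot at P3 and 65.9% at P0. In mouse foot 2 were higher and 4 lower at P3 and 2 were higher and 3 lower at P0. There 52.5% of all genes were called at P3 and 59.0% at P0. Cdkn1a, the cell cycle inhibitor, was higher in jerboa foot (0.82 ± 0.15 at P3 and 0.87 ± 0.14 at P0), and in mouse foot it was higher at P3 (1.06 ± 0.14) and lower at P0 (-0.41 ± 0.14). Ccng1, a cyclin that p53 activates, was lower in the foot in both species, by -1.13 ± 0.09 at P3 and -1.64 ± 0.10 at P0 in jerboa and by -1.14 ± 0.09 at P3 and -2.24 ± 0.09 at P0 in mouse.

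Summed levels were compared over whole lists. The 8 keratinocyte and desmosome genes together had 124 to 147 CPM in P3 jerboa foot libraries, against 102 to 127 CPM in P3 jerboa forelimb, and 145 to 184 CPM in P0 jerboa foot, against 105 to 112 CPM in P0 jerboa forelimb. In mouse they had 78.0 to 83.0 CPM in P3 foot, against 115 to 125 CPM in P3 forelimb. At P0 mouse foot had 89.7 to 120 CPM, against 102 to 108 CPM in mouse forelimb. Most of these sums came from Jup and, in jerboa foot, Dsp. Jup alone had a mean of 67.6 CPM in P3 mouse foot, against 106 CPM in P3 mouse forelimb. Jup and Dsp had means of 59.0 and 48.6 CPM in P3 jerboa foot. The suprabasal and cornified envelope genes summed to 26.9 to 29.0 CPM in P3 jerboa foot, against 14.2 to 21.0 CPM in P3 jerboa forelimb, and to 25.8 to 37.2 CPM in P0 jerboa foot, against 16.4 to 23.5 CPM in P0 jerboa forelimb. Tgm3 alone gave 17.3 CPM of the P3 jerboa foot sum and 7.57 CPM of the P3 jerboa forelimb sum. In mouse the sums overlapped at P3, with 6.31 to 6.36 CPM in foot, against 5.15 to 6.46 CPM in forelimb, and did not at P0, with 11.3 to 13.9 CPM in foot, against 8.08 to 10.5 CPM in forelimb. Basal epidermis genes, most of whose reads were of Dst, summed to 839 to 872 CPM in P3 jerboa foot, against 1675 to 1711 CPM in P3 jerboa forelimb. The part of skin in the differences of Dsp, Trp63 and Perp was not tested, since the series has no skin library, Krt5 is not analysed here, and Krt14 was at or near 0 in foot and forelimb libraries.

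Likeness to Krt5 and Krt14 could not be computed, so the genes most like Dsp and Trp63 were listed instead, a choice made after the values were seen. Over the 12 jerboa libraries, the genes whose log2 CPM followed that of Dsp most closely were Zswim1 (Pearson r = 0.984), Mat2b (r = 0.975), Hoxb9 (r = 0.971) and Rai2 (r = 0.971), of 12531 genes with a mean of at least 1 CPM in a group, of which 58 had an r over 0.95. For Trp63, ranked by the lower of the r in 12 jerboa and in 12 mouse libraries over 11817 genes, they were Shf (0.955), Hoxb9 (0.954) and B4galt3 (0.948). The keratinocyte and desmosome genes described here were left out of both rankings, so they could not appear in them. No other epidermal gene of the lists was among the closest 8 of either. Listed genes under 1 CPM in every group could not appear either. They were 7 of 16 suprabasal, 7 of 16 epithelial identity and 4 of 10 other desmosome genes. Low counts can also lower r, so this absence does not show whether Dsp and Trp63 followed the epidermal genes. Hoxb9 had 1.47 ± 0.107 CPM in P3 jerboa foot, against 0.165 ± 0.114 CPM in P3 jerboa forelimb, and 2.25 ± 0.195 CPM in P0 jerboa foot, against 0.0467 ± 0.0233 CPM in P0 jerboa forelimb. These forelimb levels of Hoxb9 are near the limit of detection. The r values were computed on log2 of CPM plus 0.1. The libraries of a species differ in limb, age and depth, which all genes share, so the r values describe the samples and carry no p.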

How the data were processed

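Deposited raw read counts per feature, whole numbers with no normalization by the authors, were used for all 24 libraries. The submitters' processing notes name STAR, with no version, and the builds, annotations and library protocol behind the counts were not given in the sources used here. A count file holds 3 columns, for either strand and for each strand. Column 4 held 98.4% to 99.6% of the reads assigned to a strand and was the count used. The features are named by mouse transcript identifiers in both species, and the mouse GENCODE M21 annotation (GRCm38) gave 17529 of 17641 features a symbol. Positions are those of that annotation. Gene levels were not compared between species.

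Counts were fitted in R 4.3.3 with edgeR 4.0.16 (TMM scaling, low counts filtered by filterByExpr, quasi-likelihood F tests). The design had a coefficient per group, for 8 groups, and 16 residual degrees of freedom (common biological coefficient of variation 0.0842). Benjamini-Hochberg adjustment ran over all 14448 genes in each comparison, at a threshold of 0.05, and the test was checked on simulated counts. SEs were derived from the fold change and the F statistic. The 9 genes, the lists and the rule for other named genes (up to 4 per list with the highest mean CPM) were chosen with earlier results of these data known. A name outside that rule is marked where it is given or had reads at or near 0. The alternatives were DESeq2 1.42.0, limma 3.58.1 voom, scaling by RLE or by the upper quartile, dropping or tightening the filter on low counts, only the libraries compared, a replicate block, reads of either strand and each library left out. Fits of each species apart and the change of the limb difference with age were added after seeing the data. Libraries of a group correlated at r from 0.987 to 0.997 and no library was a copy of another.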

Additional observations from a re-analysis of the deposited data

Results flagged for a closer look

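The foot over forelimb difference of several of these genes differed between jerboa and mouse by the test of that difference itself (jerboa minus mouse, log2, edgeR's quasi-likelihood test, all adjusted p under 0.05). At P3 it differed by 2.65 for Dsp, 2.05 for Trp63, 1.94 for Perp and -1.99 for Pkp1. At P0 it differed by 5.66 for Dsp, 2.13 for Trp63, 1.99 for Perp, 1.39 for Pkp1 and -0.82 for Jup.

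The same difference changed between P3 and P0 within a species for 3 genes, in a test added after seeing the data. Dsp changed by -1.89 in jerboa, Pkp1 by 3.08 in mouse and Jup by -0.71 in mouse.

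Reads on the strand opposite to Krt10, which entered only the alternative that counts either strand, were at 1.76 ± 0.458 RPM (reads per 1000000 counted) in P0 mouse foot, against 0.877 ± 0.389 RPM in P0 mouse forelimb (SD, n = 3). The libraries ran from 1.27 to 2.18 in foot and from 0.449 to 1.21 in forelimb and did not overlap. At P3 the values were 2.08 ± 0.702 in mouse foot and 1.96 ± 0.399 in mouse forelimb, which overlapped. The P0 case came from a search of the genes with a feature, in both species and at both ages. That search kept cases of more than 3 reads with every foot library above every forelimb library, and found no other. Lower foot values were not searched for, and how often such a case arises by chance was not tested.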

How the results depend on the processing

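Over these genes, all comparisons and alternatives, 1428 of the recomputed changes kept their direction and side of the threshold, 21 lost a call and 17 gained one with the same direction, 32 uncalled changes crossed 0, and 0 called changes reversed. The number of the 7 genes called higher in mouse foot at P0 was 2 with only the libraries compared, 2 with the replicate block and 2 with each species fitted apart, where Dsg2 was gained. In mouse foot at P3 it was 2 with upper quartile scaling (Trp63) and 2 with the replicate block (Dsg2, 0.59, adjusted p = 0.043). In jerboa foot, P3 over P0, it was 0 with RLE, DESeq2, only the libraries compared and each species apart, where Jup was lost. The number lower in jerboa forelimb at P3 was 2 with no filter, which called Krt14 (-2.43, adjusted p = 0.033). That fit called it in jerboa foot as well (-2.56, adjusted p = 0.032), each on 3 reads at P3. The number higher in mouse forelimb at P3 was 1 with upper quartile scaling and 1 with the stricter filter (Jup). The cause of these shifts was not tested.

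Leaving out each library in turn, the number lower ran from 1 to 2 in jerboa foot over forelimb at P0 and in the species difference at P3 and at P0. The range was also 1 to 2 in the jerboa limb by age test. It was 2 to 3 in mouse foot over forelimb at P3 and in jerboa foot with age. The number higher ran from 1 to 2 in mouse foot over forelimb at P3, from 0 to 1 in jerboa foot with age, was 1 each time in mouse forelimb with age, and ran from 0 to 1 in the jerboa limb by age test. Replicate numbers were not used as pairs, since only 1 of 24 correlations of same-numbered deviations passed 0.1 (0.115), and apart from the Dsg2 calls the replicate block changed no call. Depth limited Krt14 in all groups, and Dsp, Pkp1 and Dsg2 in mouse libraries. Dsp had as few as 7 reads in a P3 mouse foot library and 10 in a P0 mouse foot library. Pkp1 had as few as 3 reads in a P3 mouse forelimb library and 12 in a P0 mouse foot library. Dsg2 had as few as 14 reads in a P0 mouse forelimb library.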
